A study of Mus musculus with 13 samples.

Results

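The genes described here encode the machinery that docks, primes and fuses synaptic vesicles, together with relatives of the same families that serve other membranes. They were chosen by name alone as protein-coding genes of the synaptotagmin (Syt), syntaxin (Stx), VAMP, SNAP, complexin (Cplx), synapsin (Syn), SV2, syntaxin-binding protein (Stxbp), RIM (Rims) and Munc13 (Unc13) families and synaptophysin (Syp). The rule found 68 genes among the 41388 in each deposited table, of which 17 were synaptotagmins, 15 syntaxins, 6 VAMPs, 6 syntaxin-binding proteins, 5 SNAPs, 4 each complexins, RIMs and Munc13 genes, and 3 each synapsins and SV2 genes. Snap91 matches the rule by its symbol only, since it encodes a clathrin adaptor and not a member of the SNAP25 family.

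RNA sequencing was done on fluorescent cells sorted from dorsal root ganglia of adult mice aged 3 months. The labels give the strain as C57BL/6 and the genotype as Tg(Ret-EGFP)SJ, while the series' own text describes heterozygotes with EGFP inserted at the Ret locus, so in every group EGFP marks cells in which the Ret gene is active and, by that text, 1 Ret copy is altered. Ganglia came from lumbar levels 3 to 5 (L345) or from lumbar 6 and sacral 1 (L6S1), and the 4 groups were female L345 (3 libraries, 14 mice), female L6S1 (3 libraries, 16 mice), male L345 (3 libraries, 11 mice) and male L6S1 (4 libraries, 20 mice). Each library was a pool of 2 to 9 mice, named A, B and C in the first 3 groups and A, D, E and F in male L6S1. Whether the pools of both levels with the same letter came from the same mice is not stated. Female A and B held 7 and 4 mice at each level. Female C held 3 mice for L345 and 5 for L6S1, and male A held 5 and 9. For female C and male A the pools of the 2 levels were therefore not the same set of mice. The comparisons asked whether release genes differ between the spinal levels, between the sexes, and whether the level difference depends on sex.

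Neurons release transmitter when a vesicle SNARE (VAMP, also called synaptobrevin) zips together with a syntaxin and a SNAP25-type SNARE of the plasma membrane. Munc13 and RIM prime the vesicle, complexin clamps the partly assembled complex, and a calcium-binding synaptotagmin triggers fusion. SV2, synapsin and synaptophysin reside on the vesicle itself. Sensory neurons of the dorsal root ganglion make these messages in the cell body, send the proteins to terminals in the spinal cord, and also release peptides from dense-core vesicles.

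Between 13030096 and 27011995 counts were recorded in a library, and 3 counts, taken as the floor, correspond to 0.111 to 0.230 CPM. CPM stands for a gene's share of the library's reads, corrected by TMM factors and scaled as in the deposited unit. RPKM divides it by the deposited gene length in kilobases and was the only scale on which genes were compared with each other. Ret was measured at 87.2 to 221 CPM and Tubb3, a general neuronal tubulin, at 2819 to 7866 CPM in the 13 libraries, whereas Ptprc, the defining marker of leukocytes, stayed at or under 0.744 CPM. Male L6S1 D and E stood apart from the other 11 libraries. Ret, the gene whose reporter was sorted, was at 154 and 87.2 CPM in D and E against 181 to 221 CPM elsewhere. Among the general neuronal markers, Avil was lowest in E (397 CPM), whereas Uchl1 and Prph were higher in both D and E than in the other 11. Summed over 6 markers, peptidergic nociceptor genes reached 22440 and 28951 CPM in D and E against 7661 to 13537 CPM elsewhere, and nonpeptidergic markers 591 and 287 CPM against 712 to 1392 CPM. The peptidergic sum was carried by Calca (14252 and 17036 CPM) and Tac1 (7113 and 11125 CPM). Kit, on the same list, was at 40.7 and 21.5 CPM in D and E against 84.3 to 316 CPM elsewhere, Trpv1 was lowest in E at 221 CPM, and Gfra3 lay inside the range of the other libraries. All 14 glial markers were found, and their sum was 9655 CPM in E against 3259 to 4757 CPM in the 12 other libraries, D included. Defining markers of leukocytes (Cd3e, Csf1r, Itgam) and of muscle (Ckm, Myh4) were at 0 counts in some libraries. The A libraries of female L345, female L6S1 and male L345 also differed together from the remaining 10 in many genes, as described below for the release genes. In these A libraries the general neuronal sum was 6843 to 8081 CPM against 9171 to 15126 CPM in the other 10. Tubb3 carried most of this (2819 to 3031 against 4044 to 7866 CPM), whereas Elavl4 was higher (960 to 1306 against 453 to 780 CPM). The endothelial and mural sum was 443 to 495 against 156 to 360 CPM, with Rgs5 at 422 to 467 against 120 to 336 CPM. The part of these markers was not tested.

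Release genes were abundant in these cells and a few genes carried most of the signal. Their RPKM, averaged over the 13 libraries, summed to 2679.8, and 56.1% of it came from 5 genes, Syt4, Syt11, Snap25, Snap47 and Cplx1. Of the 68 genes, 9 had a mean of at least 100 RPKM, 21 lay between 10 and 100, 27 between 1 and 10 and 11 under 1. Cplx3, Cplx4 and Syt8 had at most 3 counts in any library and were not tested, leaving 65 genes. The plot of RPKM by family shows that each family was led by 1 or 2 members. In bulk samples, fewer cells of a type and less RNA per cell cannot be told apart, which holds for every level and difference given here.

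**Figure D1:**
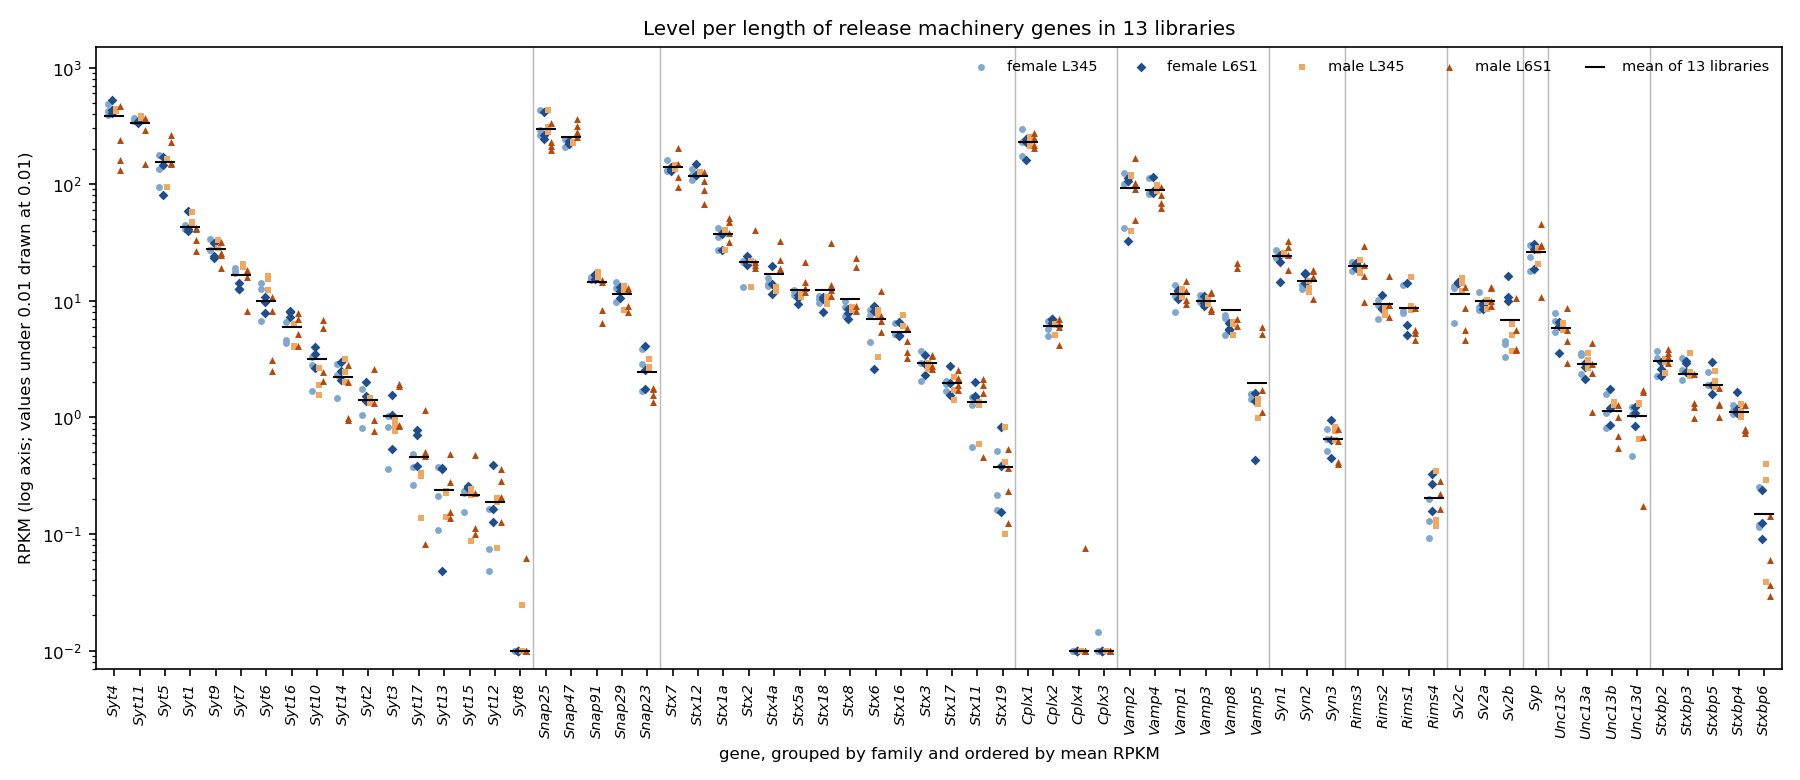
Each point is the RPKM of a gene in 1 of the 13 libraries (log axis), coloured by group, with a black bar at the mean of all 13; genes are grouped by family and ordered by mean, and a pair of genes is left out. Syt4, Syt11, Snap25, Snap47 and Cplx1 lie highest, and Cplx3, Cplx4 and Syt8 lie at the bottom of the axis.

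Among the plasma membrane SNAREs, Snap25, the partner of syntaxin in synaptic fusion, reached 300 ± 80.5 RPKM (SD, n = 13). Its widely expressed relative Snap23 reached 2.43 ± 0.880 RPKM, so that the ratio of Snap25 to Snap23 was 129 ± 25.9 and was never under 102. Snap47, a broadly expressed member of the same family, reached 252 ± 43.6 RPKM and exceeded Snap25 in 3 of the 13 libraries, all of them male L6S1. Snap29, which takes part in fusion inside the cell, was measured at 11.5 ± 2.11 RPKM. The clathrin adaptor Snap91 reached 14.6 ± 3.33 RPKM.

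The synaptic syntaxins were not the highest of their family. Stx7 and Stx12, which act on endosomes, led at 140 ± 25.4 and 117 ± 20.8 RPKM (n = 13), and the synaptic Stx1a followed at 37.1 ± 7.42 RPKM. The ratio of Stx7 to Stx1a was 3.99 ± 1.33 and lay above 1 in all 13 libraries. How the counting treated strand is not given in the sources used here, so counts of genes whose exons overlap on opposite strands may not be fully separate.

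Of the vesicle SNAREs, Vamp2, the synaptic synaptobrevin, and Vamp4, which serves the trans-Golgi network and endosomes, were at similar levels per length, 92.8 ± 40.3 and 88.6 ± 15.2 RPKM. Vamp1, the second synaptic synaptobrevin, was at 11.4 ± 1.78 RPKM, and the ratio of Vamp2 to Vamp1 was 7.86 ± 2.59 with a range of 3.15 to 11.4. Vamp3, the widely expressed cellubrevin, varied least of all 68 genes, with a coefficient of variation of 11.4% at 29.0 ± 3.31 CPM (n = 13). Vamp5, known from muscle, varied most among the 65 tested genes, with a coefficient of variation of 82.4%.

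Synaptotagmins were led by 2 members that do not bind calcium. Syt4, found on secretory granules and the Golgi, was at 382 ± 124 RPKM and Syt11 at 337 ± 61.6 RPKM, ahead of the calcium-binding Syt5 at 155 ± 51.3 RPKM. Syt1, the fast calcium sensor of synaptic release, was at 43.1 ± 8.56 RPKM, and Syt9, another fast sensor, at 27.5 ± 4.18 RPKM. Syt2, which replaces Syt1 at some fast synapses, was at 1.41 ± 0.502 RPKM, and the ratio of Syt1 to Syt2 was 33.8 ± 12.0. Syt4 exceeded Syt1 by 8.76 ± 2.29 times, with the lowest ratio, 3.95, in a male L6S1 library. Syt7, a slow high-affinity sensor, was at 16.5 ± 3.63 RPKM.

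A single member held most of the complexins. Cplx1 made up 97.4% ± 0.539 (SD, n = 13) of the summed RPKM of the 4 complexins, and its ratio to Cplx2 was 38.6 ± 6.90. Among the syntaxin-binding proteins, Stxbp2 and Stxbp3, which serve secretion in other cells, were at 3.02 ± 0.523 and 2.35 ± 0.783 RPKM. Priming genes were lower: Rims3, a short RIM, was at 19.7 ± 4.38 RPKM, Rims1 at 8.68 ± 3.76, Unc13c at 5.83 ± 1.57 and Unc13a, the principal Munc13 of excitatory synapses, at 2.85 ± 0.803 RPKM. Per length, Unc13c exceeded Unc13a in 12 of 13 libraries. Male L6S1 F was the exception with a ratio of 0.671, from 25.5 CPM of Unc13c and 54.6 CPM of Unc13a. Among vesicle proteins, Syp was at 26.1 ± 8.29 RPKM, Syn1 at 24.2 ± 4.46, Syn2 at 14.7 ± 2.52, Sv2c at 11.5 ± 3.77, Sv2a at 9.97 ± 1.58 and Sv2b at 6.78 ± 3.95 RPKM.

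Between L6S1 and L345, averaged over the sexes, no release gene passed the test. Of the 65 tested, 0 were called by edgeR's quasi-likelihood test at an adjusted p under 0.05, in a comparison in which 0.448% of all 15406 genes were called, 66 higher and 3 lower in L6S1. With an unadjusted p under 0.05 there were 7 release genes, 5 higher (5.45% of all genes were) and 2 lower (2.95% were), or 10.8% against 8.39% of all genes, a share near the background. DESeq2 and limma voom also called 0 release genes here, beside 1.01% and 0.363% of all genes. The median log2 fold change of the 65 was 0.04 beside 0.02 for all genes tested, with 35 positive and 30 negative values. In 54 of the 65 the log2 fold change lay within 0.5 of zero, and for 50 of the 65 the 95% confidence interval lay inside a 2-fold difference in either direction.

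**Figure D2:**
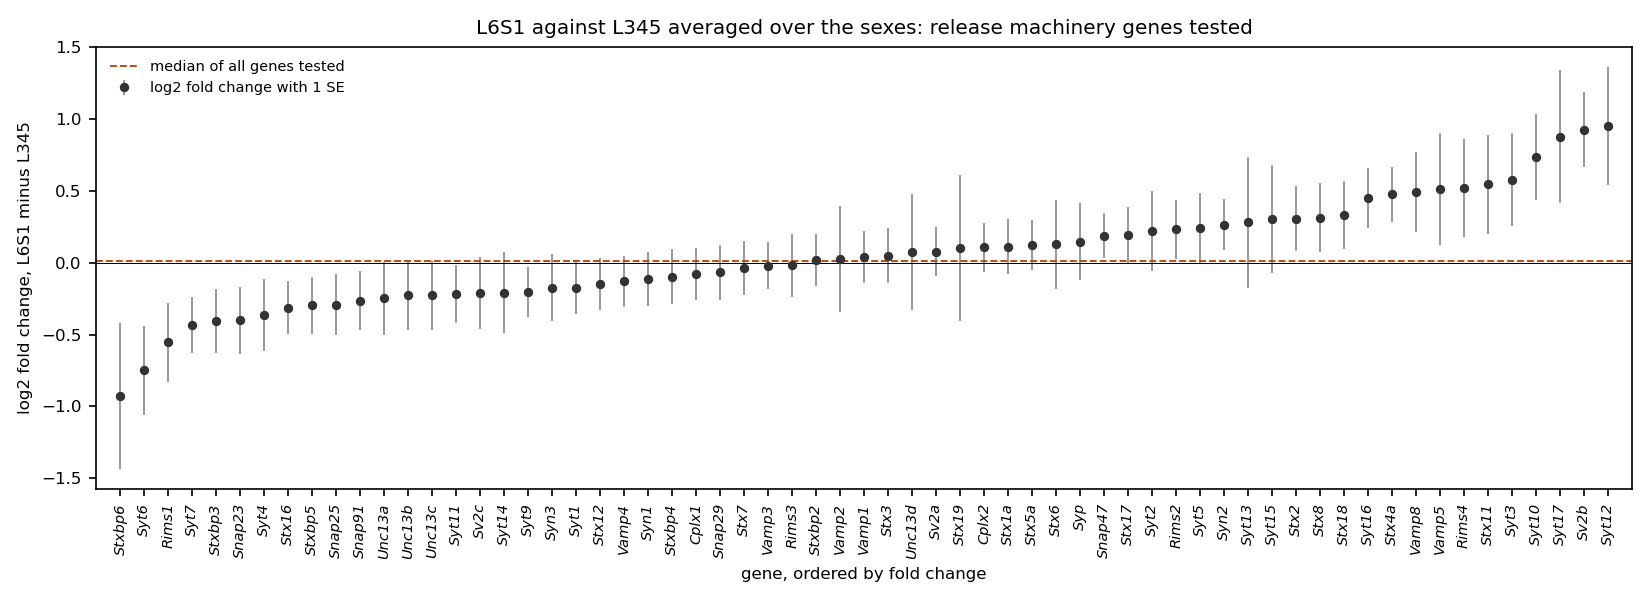
The log2 fold change of L6S1 against L345, averaged over the sexes, is shown for the tested genes (a pair of them is left out), with bars of 1 SE, ordered from lowest to highest; the dashed line is the median of all genes tested. Values run from -0.93 for Stxbp6 to 0.95 for Syt12, and none passed the test.

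For the core fusion genes these intervals bound how large a difference could be. Cplx1 had a log2 fold change of -0.08 with a 95% interval of -0.46 to 0.31, Syt1 -0.18 (-0.55 to 0.20), Stx1a 0.11 (-0.29 to 0.52), Snap25 -0.29 (-0.74 to 0.16) and Vamp1 0.04 (-0.35 to 0.43). Syp was at 0.15 (-0.43 to 0.72), Syn1 at -0.11 (-0.51 to 0.28), Unc13a at -0.25 (-0.78 to 0.29) and Sv2a at 0.08 (-0.28 to 0.44). The interval of Vamp2 was the widest of these, 0.03 (-0.75 to 0.81). Cplx2 and Syt2, the lower paralogs, had log2 fold changes of 0.11 and 0.22. An interval that includes 0 does not show that the levels are equal.

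The largest differences, other than that of Sv2b, were as follows. Syt12, which had at most 2.17 CPM in any library, had a log2 fold change of 0.95 ± 0.41 (SE), and Syt17, at most 1.86 CPM, 0.88 ± 0.46. Syt10 was at 0.74 ± 0.30, Syt3 at 0.58 ± 0.32 and Stx11, a syntaxin known from lymphocyte granules, at 0.55 ± 0.34. At the other end, Stxbp6 (amisyn) was at -0.93 ± 0.51 with at most 1.93 CPM, Syt6 at -0.75 ± 0.31, Rims1 at -0.55 ± 0.28, Syt7 at -0.43 ± 0.19, Stxbp3 at -0.41 ± 0.22 and Snap23 at -0.40 ± 0.23. Of these 11, Syt10 had the lowest adjusted p, 0.547 by edgeR. Stx4a, named after its values were seen, was at 0.48 ± 0.19 (edgeR adjusted p = 0.529).

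Sv2b had the lowest adjusted p of the 65. Sv2b encodes a vesicle glycoprotein whose family serves in priming and as receptor of botulinum neurotoxin A. The gene lies on chromosome 7, 75114897 to 75309262, minus strand (GRCm38). Sv2b was measured at 18.9, 24.3 and 26.0 CPM in female L345 A, B and C and at 93.1, 57.3 and 61.4 CPM in female L6S1 A, B and C. In females the levels did not overlap, and every L6S1 pool lay more than 2-fold above every L345 pool. In males Sv2b was at 36.2, 21.1 and 29.1 CPM for the L345 pools and at 31.8, 21.9, 21.3 and 60.7 CPM in L6S1 A, D, E and F. Only male L6S1 F lay above the male L345 range, within the range of female L6S1, and the other 3 overlapped it. The log2 fold change averaged over the sexes was 0.93 ± 0.26 (edgeR adjusted p = 0.223).

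In females Sv2b had a log2 fold change of 1.61 ± 0.38 (edgeR adjusted p = 0.285), in males of 0.24 ± 0.35, and the difference of males minus females was -1.38 ± 0.52 (adjusted p = 0.409). With the replicate letter as a block, which pairs libraries of the same letter, Sv2b was called in females at 1.57 ± 0.20 (edgeR adjusted p = 0.00151, with 0.623% of all genes called) and in the average at 0.77 ± 0.18 (adjusted p = 0.0283, with 5.43% called). With a block of its own in each sex, the female value was 1.59 ± 0.22 (adjusted p = 0.0181, with 0.363% called) and the average 0.70 ± 0.22 (adjusted p = 0.183). Without male L6S1 D and E the average was 1.14 ± 0.21 (adjusted p = 0.0393, with 0.476% of all genes called). Over the 22 alternatives of the average the adjusted p ran from 0.0283 to 0.540 and was under 0.05 in 3, and over the 23 of the female comparison it ran from 0.00151 to 1.00 and was under 0.05 in 4. The sign was positive in every one of these.

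The other members of the family differed from Sv2b in pattern. Sv2a, the most widely expressed SV2 (chromosome 3, 96181151 to 96195521), was measured at 54.7, 38.4 and 41.2 CPM in female L345, 44.4, 39.7 and 42.8 in female L6S1, 46.8, 45.6 and 39.7 in male L345, and 46.0, 59.2, 42.1 and 60.3 CPM in male L6S1. All 4 groups overlapped. Sv2c (chromosome 13, 95959443 to 96132577) was at 28.7, 59.3 and 57.0 CPM in female L345, 64.0, 62.8 and 62.6 in female L6S1, 53.9, 62.8 and 70.4 in male L345, and 58.8, 20.5, 25.0 and 38.5 CPM in male L6S1. D, E and F were the low libraries in male L6S1 and A was low in female L345. The ratio of Sv2b to Sv2a per length was 1.35 ± 0.310 (SD, n = 3) in female L6S1, where it exceeded 1 in all 3 pools, and 0.436 ± 0.134, 0.534 ± 0.138 and 0.523 ± 0.224 in female L345, male L345 and male L6S1, where it stayed under 1 in all 10.

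**Figure D3:**
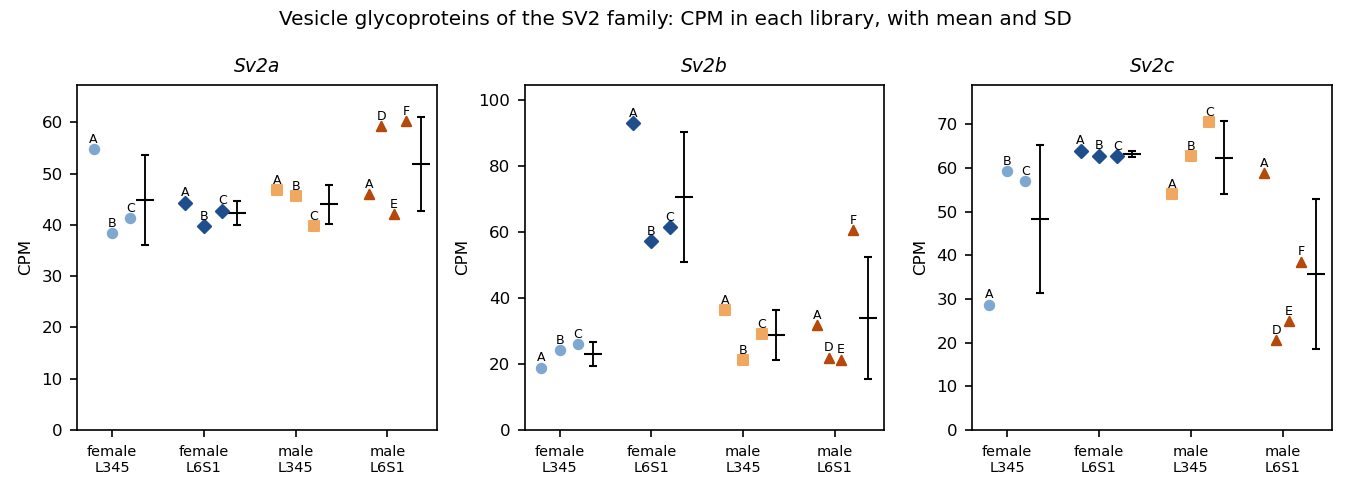
CPM of Sv2a, Sv2b and Sv2c in each library, with the replicate letter beside each point and a black bar for the mean and SD of the group. For Sv2b the female L6S1 pools (57.3 to 93.1 CPM) lie above all female L345 pools (18.9 to 26.0 CPM), and male L6S1 F is the only high male library.

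The sequences upstream of the 3 SV2 genes are shown because the paralogs were measured at different levels and in different patterns. RefSeq promoter windows on GRCm38.p6 were found for 52 of the 68 genes, 67 windows in all, of which the bases before the gene's annotated 5′ end are printed 5′ to 3′ on the gene's strand. The Sv2a stretch is chr3:96180977-96181150 (plus strand), that of Sv2b chr7:75309263-75309512 and that of Sv2c chr13:96132578-96132827 (both minus strand). Capitals mark matches on either strand to any of 5 short motifs, searched as exact letters. The GC box was searched as GGGCGG, with any overlap counted. For the TATA box the letters were TATAAA. The CCAAT box is spelled by its own name. The cAMP response element was taken as TGACGTCA, and among possible E-boxes only CACGTG was used.
Sv2a: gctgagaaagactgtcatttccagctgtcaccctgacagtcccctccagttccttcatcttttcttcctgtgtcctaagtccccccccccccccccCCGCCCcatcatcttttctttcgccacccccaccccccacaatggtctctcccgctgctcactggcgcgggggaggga
Sv2b: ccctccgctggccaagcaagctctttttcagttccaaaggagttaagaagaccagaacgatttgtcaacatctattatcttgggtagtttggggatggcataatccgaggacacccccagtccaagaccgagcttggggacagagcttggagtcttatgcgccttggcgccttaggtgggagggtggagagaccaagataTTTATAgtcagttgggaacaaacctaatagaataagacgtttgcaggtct
Sv2c: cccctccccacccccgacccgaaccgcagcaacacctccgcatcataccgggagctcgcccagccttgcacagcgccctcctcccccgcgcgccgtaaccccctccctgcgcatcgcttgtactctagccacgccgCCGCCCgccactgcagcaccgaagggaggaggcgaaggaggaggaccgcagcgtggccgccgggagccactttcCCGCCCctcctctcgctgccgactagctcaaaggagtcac
The Sv2b stretch held 1 TATA box match, on the opposite strand and starting 50 bases before the start site, and none to the other motifs. Sv2b had 4 windows, of which only that nearest its annotated 5′ end is described here, while Sv2a and Sv2c had 1 each. Sv2a held 1 GC box match and Sv2c 2, and neither held a match to the TATA box. GC bases made up 48.8% of the Sv2b stretch, 61.5% of Sv2a and 70.8% of Sv2c. The Sv2a stretch has 174 bases, since its window's start site lies 76 bases inside the gene, so its matches are not on the scale of the longer windows. Over all 32851 windows of 250 bases, the GC box letters were found in 32.7%, those of the TATA box in 12.4%, of the CCAAT box in 33.8%, of the cAMP response element in 1.55% and of the E-box in 6.02%. Such matches describe the letters only.

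Within females, 0 of the 65 genes were called, beside 0.0195% of all genes (3 of 15406), and 1, Sv2b, had an unadjusted p under 0.05, or 1.54% against 2.25% of all genes (1.71% higher and 0.545% lower). DESeq2 called Sv2b at 1.63 (adjusted p = 0.0200), beside 0.254% of all genes, and limma voom called 0 release genes, beside 0.0714%. Libraries of the levels did not overlap for 6 genes that were higher in L6S1 (Sv2b, Sv2c, Syn2, Syt15, Syt16 and Stx11), or 9.23% of the 65 beside 4.89% of all genes, and for Syt7 alone among lower ones, 1.54% beside 3.86%. Syt7 was at 126, 132 and 119.6 CPM in female L345 and 88.4, 99.2 and 87.3 CPM in female L6S1, and in males at 139.5, 142.6 and 136 CPM in L345 and 111, 125, 56.7 and 129 CPM in L6S1. Its L6S1 libraries thus lay under the L345 libraries of the same sex in both sexes, while the 65 genes held none whose 7 L6S1 libraries all lay on one side of all 6 L345 libraries (0.539% of all genes lay above and 0.227% below). The block gave Syt7 -0.39 ± 0.10 in the average (edgeR adjusted p = 0.0425, with 5.43% of all genes called), and with a block in each sex no release gene but Sv2b, in females, was called.

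In males, 0 of the 65 genes were called, beside 0.221% of all genes (34 of 15406, all higher in L6S1). An unadjusted p under 0.05 was reached by 15, with 6 higher and 9 lower, or 23.1% against 25.3% of all genes (14.3% higher and 11% lower). DESeq2 called 3, Stx4a at 0.89 (adjusted p = 0.0328), Vamp8 at 1.16 (adjusted p = 0.0492) and Syt6 at -1.25 (adjusted p = 0.0493), beside 7.53% of all genes, and limma voom 0, beside 0.104%. Without overlap, 3 genes were higher in L6S1 (Snap47, Stx18 and Stx4a), 4.62% beside 9.21% of all genes, and 9 lower (Unc13b, Snap23, Snap91, Syt1, Syt11, Syt6, Syt7, Stxbp5 and Stx16), 13.8% beside 9.49%. The lowest adjusted p belonged to Stx4a, a plasma membrane syntaxin of non-synaptic secretion, at 0.87 ± 0.27 (edgeR adjusted p = 0.137). Stx4a was at 29.9, 31.0 and 28.7 CPM in male L345 and 44.6, 76.9, 44.5 and 52.4 CPM in male L6S1, against 36.7, 31.4 and 33.2 CPM in female L345 and 27.2, 33.1 and 47.2 CPM in female L6S1. All 4 male L6S1 pools lay above the male L345 pools, and the female groups overlapped.

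Male L6S1 A decided the count in males. Without it, 11 of 65 release genes were called by edgeR, 5 higher (Stx4a, Stx8, Syt10, Vamp5 and Vamp8) and 6 lower (Stx16, Stxbp3, Stxbp5, Sv2c, Syt4 and Syt6), or 16.9% beside 20.5% of the genes tested in that fit. In that fit male L6S1 is D, E and F, and 3133 genes were called in all. Without D and E no release gene was called in males, where 0.122% of all genes were called. The replicate block, in which male L6S1 rests on library A alone because D, E and F have no partner, called 4 (Vamp2, Unc13d and Syt5 higher, Rims1 lower) beside 4.67% of all genes. The block within each sex called 0 of the 65 beside 0% of all genes in males, with 2 residual degrees of freedom over all 13 libraries. Both come from the female libraries, and the male difference again rests on the pair of A libraries. That count is therefore not judged against the spread between male pools.

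**Figure D4:**
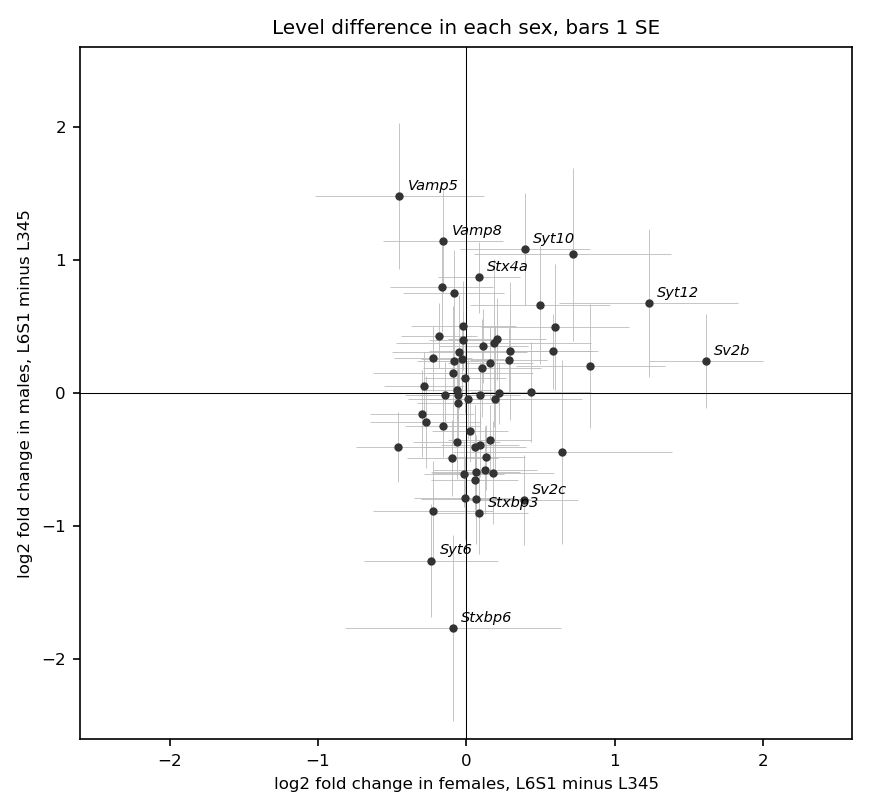
Each point is a tested gene (a pair of genes is not shown), placed by its log2 fold change of L6S1 against L345 in females (x axis) and in males (y axis), with bars of 1 SE. Sv2b lies far to the right near 0 on the male axis, while Vamp5, Vamp8, Stx4a and Syt10 lie high, and Stxbp6, Syt6 and Stxbp3 low, on the male axis.

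No release gene passed the test of whether the level difference depends on sex. The test of males minus females called 0 of the 65, beside 0% of all genes, and 5 had an unadjusted p under 0.05, 7.69% against 11.7% of all genes (6.71% higher and 5.01% lower). DESeq2 and limma voom called 0 release genes, beside 0% of all genes in each. These 5, named after their values were seen, were Vamp5 (1.93 ± 0.79) and Vamp8 (1.30 ± 0.56) with a more positive level difference in males, and Sv2b (-1.38 ± 0.52), Sv2c (-1.19 ± 0.50) and Stxbp3 (-0.99 ± 0.44) with a more negative one, all with an adjusted p of 0.409. With the replicate block Vamp2 was called at 1.51 ± 0.22 (edgeR adjusted p = 0.0133, with 0.201% of all genes called), and with a block in each sex its value was 1.51 ± 0.30 (adjusted p = 0.303).

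Males and females, averaged over the levels, gave 0 called release genes beside 0.0779% of all genes (12 of 15406, 0.0389% in each direction), and 0 with an unadjusted p under 0.05 beside 6.10% of all genes (2.86% higher in males and 3.23% lower). DESeq2 and limma voom also called 0, beside 0.0946% and 0.0779% of all genes. In 63 of the 65 the log2 fold change lay within 0.5 of zero, and 58 of the 95% intervals lay inside a 2-fold difference. The largest values were 0.64 ± 0.39 for Vamp5, 0.51 ± 0.28 for Vamp8 and 0.45 ± 0.24 for Stx8 towards males, and -0.44 ± 0.25 for Syt4, -0.43 ± 0.22 for Stxbp3 and -0.40 ± 0.23 for Snap23 towards females, with the lowest adjusted p at 0.665. Without male L6S1 D and E the values of Vamp5 and Vamp8 were -0.01 and -0.01. The processing notes name STAR, Salmon and the build mm10 for female libraries only, so a sex difference and a difference in processing cannot be told apart. With the replicate block Vamp2 alone was called, at 0.78 ± 0.11 (edgeR adjusted p = 0.00602, with 2.40% of all genes called).

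Vamp2 was called in 4 of the 5 comparisons with the replicate block and in none without it. The gene, which encodes the synaptic vesicle SNARE, lies on chromosome 11, 69088490 to 69092384, plus strand. It was measured at 160.2, 383 and 478 CPM in female L345 A, B and C, 125, 407 and 429 in female L6S1 A, B and C, 151, 459 and 446 in the male L345 pools, and 389, 189, 346 and 635 CPM in male L6S1 A, D, E and F. The A libraries of the first 3 groups lay at 125 to 160.2 CPM, under all other 10 libraries (189 to 635 CPM), whereas male L6S1 A lay among the latter. Across the 65 genes, 6 were higher in these 3 libraries than in all others, Rims1, Snap23, Snap25, Vamp4, Stxbp3 and Stxbp5, and 6 lower, Vamp2, Syt3, Syt5, Stxbp2, Stx1a and Stx6, each 9.23% beside 8.15% and 7.72% of all genes. Snap25 was at 2816 to 2932 CPM in the 3 libraries and 1337 to 2253 CPM in the others, and Rims1 at 97.5 to 114 CPM against 32.4 to 64.4 CPM. Stx1a was at 72.6 to 72.9 CPM against 85.0 to 136 CPM, and Syt5 at 140.4 to 166 CPM against 233 to 459.7 CPM. All 3 libraries were pools of 5 to 7 mice, but female L6S1 C, at 429 CPM of Vamp2, was also a pool of 5. What the letters stand for is not stated.

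In the replicate block the average over the sexes called 5 release genes, 7.69% of the 65 beside 5.43% of all genes. These were Vamp2 (0.61 ± 0.11, edgeR adjusted p = 0.00673), Unc13d (0.80 ± 0.21, adjusted p = 0.0435) and Sv2b higher, and Rims1 (-0.65 ± 0.13, adjusted p = 0.0155) and Syt7 lower. Unc13d, a Munc13 of granule secretion in immune cells, was at 2.17, 5.02 and 5.71 CPM in female L345, 3.97, 5.71 and 5.13 in female L6S1, 3.05, 6.19 and 6.03 in male L345, and 8.10, 3.16, 0.819 and 7.65 CPM in male L6S1. For both Vamp2 and Unc13d the unblocked values were near zero, 0.03 ± 0.37 and 0.08 ± 0.40, and in the block the male difference rests on the pair of A libraries. Rims1 was at 97.5, 57.7 and 55.6 CPM in female L345, 101, 44.0 and 35.6 in female L6S1, 114, 64.4 and 58.6 in male L345 and 60.9, 37.6, 39.7 and 32.4 CPM in male L6S1. Its L6S1 libraries lay under the L345 library of the same letter in 3 of the 4 pairs, and female A was the exception.

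**Figure D5:**
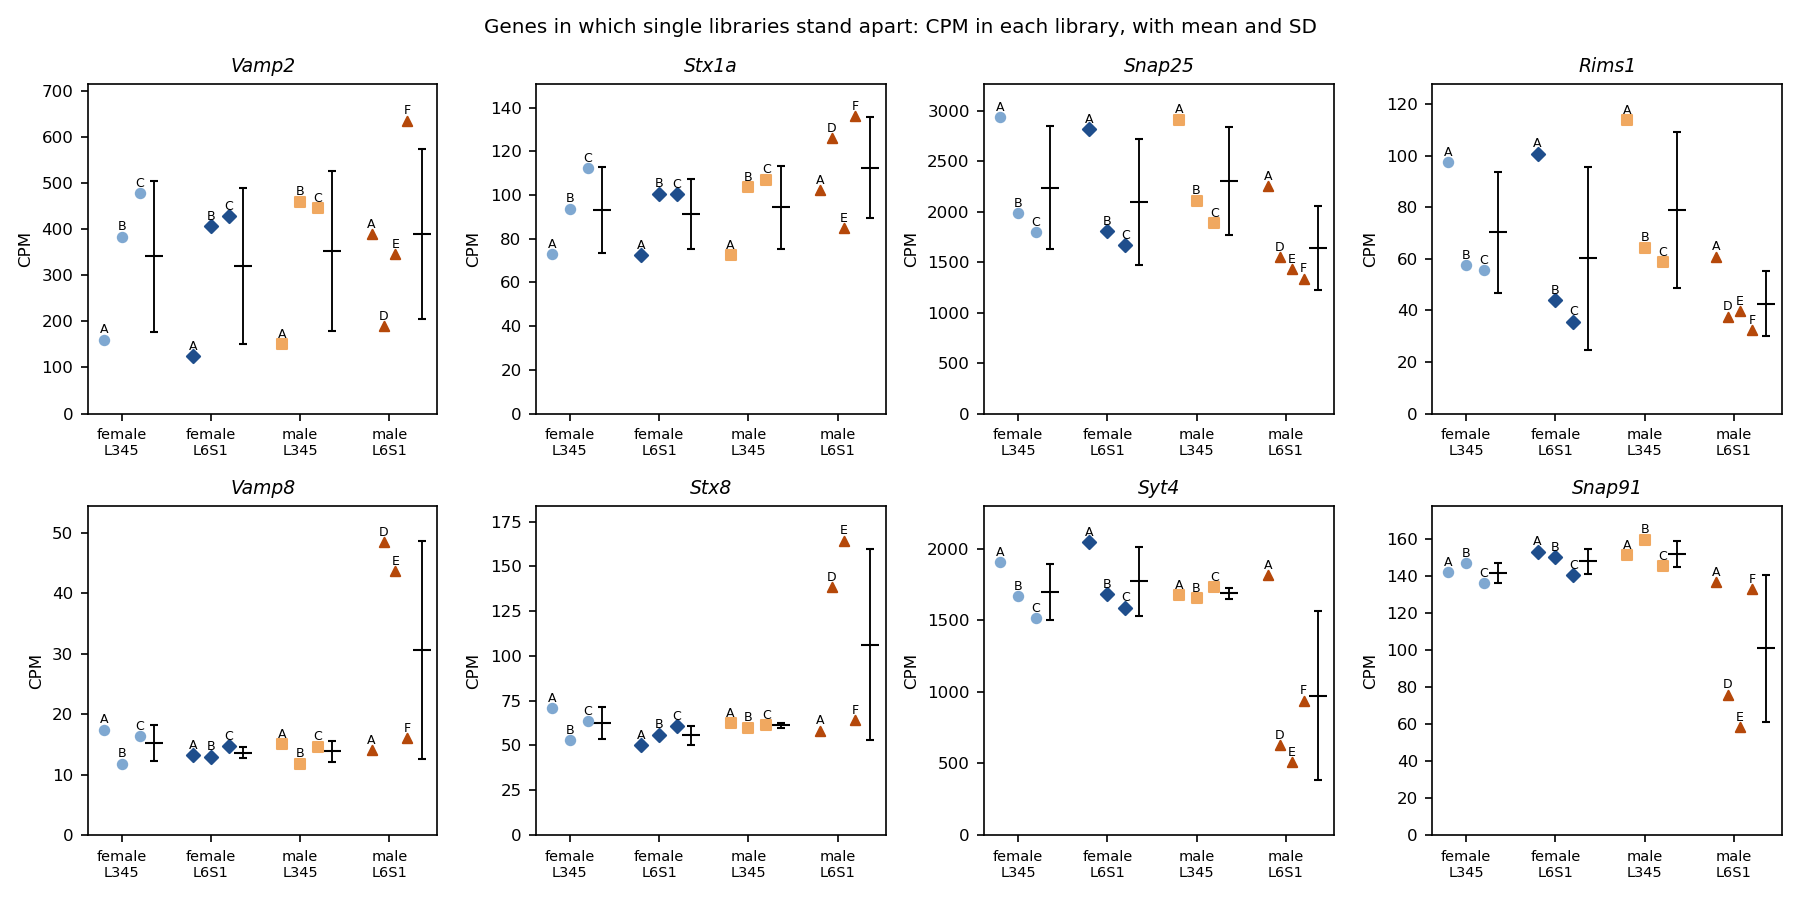
CPM in each library for 8 genes, with replicate letters and a black bar for the mean and SD of each group. In the upper row the A libraries of the first 3 groups stand apart (Vamp2 at 125 to 160.2 CPM, Snap25 at 2816 to 2932 CPM), and in the lower row male L6S1 D and E do (Vamp8 at 43.7 and 48.4 CPM, Syt4 at 511 and 630 CPM).

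Male L6S1 D and E stood apart in 17 release genes. In both, 6 genes were higher than in all other 11 libraries, 9.23% of the 65 beside 17.8% of all genes, and 11 were lower, 16.9% beside 18.4%, both under the share of all genes. The higher ones were Vamp5, Vamp8, Stx8, Syt10, Stx5a and Snap47, of which Vamp8, Stx8 and Stx5a serve fusion on endosomes or at the Golgi. The lower ones included the synaptic genes Rims3, Unc13b, Sv2c and Syn3, the synaptotagmins Syt4, Syt6 and Syt11, and Snap91, Stxbp4 and Stx16. Summed over the 68 genes, D and E had 8903 and 8409 CPM, while the other 11 libraries had 10919 to 12245 CPM. The peptidergic and nonpeptidergic marker sums given above lay outside the range of the other libraries in both D and E, and the glial sum in E only. Their part in these values was not tested.

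Vamp8 and Vamp5, neighbours on the minus strand of chromosome 6 with 4754 bases between them, were high in the same libraries. Vamp8 (72385223 to 72390703) was at 17.4, 11.8 and 16.4 CPM in female L345, 13.2, 13 and 14.8 in female L6S1, 15.1, 11.8 and 14.6 in male L345, and 14.1, 48.4, 43.7 and 16.1 CPM in male L6S1 A, D, E and F. Vamp5 (72368049 to 72380468) was at 0.705 to 2.81 CPM in 11 libraries and at 9.80 and 8.48 CPM in D and E. Male L6S1 A and F lay within the range of the other groups for both genes. Relative to the mean of the other 11 libraries, D and E averaged 4.18-fold higher for Vamp5 and 3.20-fold higher for Vamp8. The log2 fold change of L6S1 against L345 in males was 1.48 ± 0.55 for Vamp5 (edgeR adjusted p = 0.147) and 1.14 ± 0.39 for Vamp8 (adjusted p = 0.138). Summed over all 10 immune markers, levels were at 7.49 and 11.1 CPM in D and E against 2.42 to 7.14 CPM elsewhere. Lyz2 (4.62 and 8.13 CPM) carried most of this, and Cd68 was also higher (0.377 and 0.526 CPM). Ptprc, Cx3cr1 and Itgam lay inside the range of the other libraries. Over all 5 skeletal muscle markers the sums were 17.2 and 15.7 against 3.75 to 7.11 CPM. Acta1 (10.9 and 7.37 CPM) and Mylpf (5.75 and 7.08 CPM) carried these, with Tnnt3 at 0.141 and 0 CPM. The part of these cells was not tested.

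Upstream sequence is shown for these neighbours because both genes stood apart in D and E. The stretches are chr6:72380469-72380718 for Vamp5 and chr6:72390704-72390917 for Vamp8, on GRCm38.p6 and the minus strand, with capitals for matches to the same 5 motifs.
Vamp5: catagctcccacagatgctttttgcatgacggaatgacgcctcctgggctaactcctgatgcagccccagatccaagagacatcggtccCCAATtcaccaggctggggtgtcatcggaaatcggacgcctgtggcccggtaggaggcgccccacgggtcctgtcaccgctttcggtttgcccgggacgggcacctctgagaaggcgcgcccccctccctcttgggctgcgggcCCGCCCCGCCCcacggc
Vamp8: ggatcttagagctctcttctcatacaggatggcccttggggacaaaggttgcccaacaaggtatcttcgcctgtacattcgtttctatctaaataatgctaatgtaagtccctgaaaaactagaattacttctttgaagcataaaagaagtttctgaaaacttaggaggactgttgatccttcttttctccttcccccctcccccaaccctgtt
Vamp5 held 2 overlapping matches to the GC box and 1 to the CCAAT box, and Vamp8 held no match to any of the 5. GC bases made up 66.0% and 42.5%. The Vamp8 stretch has 214 bases, since its window's start site lies 36 bases inside the gene, and is shorter than the windows behind the shares given above.

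Among the other genes that set D and E apart, Syt4 had the highest level per length. Syt4 was at 1905, 1667 and 1517 CPM in female L345, 2046, 1682 and 1589.7 in female L6S1, 1678, 1655 and 1732 in male L345 and 1818, 630, 511 and 939 CPM in male L6S1 A, D, E and F. F was the next lowest library after D and E. Syt6 was at 18.1 and 14.6 CPM in D and E against 39.0 to 95.4 CPM, and Snap91 at 76.0 and 58.2 against 133 to 159.7 CPM. Stx8 was at 138 and 164 CPM against 50.1 to 70.7 CPM, and Snap47 at 836 and 966 against 550 to 741 CPM. Cplx1, in contrast, was at 474 and 449.6 CPM in D and E, inside the range of 355 to 650.3 CPM of the other libraries, and Sv2a at 59.2 and 42.1 CPM inside 38.4 to 60.3 CPM. Snap47 shares 307 exonic bases with Jmjd4, Stx18 573 with Nsg1 and Syn3 1733 with Timp3, each on the opposite strand. Timp3 had 12878 counts over all libraries and Syn3 2117.

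Of the 95 partner genes of the pathway, in 6 lists, 89 were tested. By edgeR 2 were called averaged over the sexes (2.25%, beside 0.448% of all genes) and 1 in males (1.12%, beside 0.221%). Rab3b, a small GTPase of vesicles, was higher in L6S1 at 1.12 ± 0.22 (edgeR adjusted p = 0.0321) averaged over the sexes and 1.63 ± 0.31 (adjusted p = 0.0383) in males. It was at 22.0, 17.0 and 17.8 CPM in female L345, 29.2, 27.3 and 30.4 in female L6S1, 22.5, 26.7 and 20.8 in male L345 and 35.6, 88.7, 95.5 and 69.2 CPM in male L6S1, so that all 7 L6S1 libraries lay above all 6 L345 libraries. The call was lost in 11 of 13 fits that left out 1 library (adjusted p up to 0.133), and in males in 12 of 13 (up to 0.274), with the same sign. The replicate block gave Rab3b 0.58 averaged over the sexes (adjusted p = 0.0244) and 0.54 in males (adjusted p = 0.173), and a block in each sex 0.64 (adjusted p = 0.104) and 0.66 (adjusted p = 0.319). Without D and E its values were 0.88 (adjusted p = 0.0534) and 1.16 (adjusted p = 0.218). Pcsk1, the convertase that cuts peptide precursors in dense-core vesicles, was higher at 0.99 ± 0.20 (edgeR adjusted p = 0.0408), with 28.0, 22.8 and 24.7 CPM in female L345, 84.1, 50.2 and 52.0 in female L6S1, 29.2, 25.9 and 21.8 in male L345 and 43.8, 26.2, 42.7 and 50.0 CPM in male L6S1. Only male L6S1 D overlapped L345, and the call was lost in 10 of 13 fits without 1 library (adjusted p up to 0.178).

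No other partner gene was called averaged over the sexes in the fit without a block. With the replicate block 18 of the 89 were called, 13 higher and 5 lower (20.2%, beside 5.43% of all genes), and with a block in each sex 1, Pcsk1 (1.12%, beside 0.766%). Among the genes named below, the replicate block called Pclo at -0.91 (adjusted p = 0.0284), Slc17a8 at -0.55 (adjusted p = 0.0406), Syngr2 at 0.62 (adjusted p = 0.0333), Ptprn at 0.43 (adjusted p = 0.0467) and Esyt1 at 0.44 (adjusted p = 0.0232). Rab27b was called without male L6S1 A, at -0.70 (adjusted p = 0.0392). Values below are those without a block. The 27 tested active zone and priming genes had a median log2 fold change of -0.14, from Pclo at -0.65 and Rab27b at -0.56 to Doc2b at 0.77 and Rab3b. The 9 genes that take SNAREs apart or chaperone them had a median of 0.08, with Nsf at -0.34 and Dnajc5 at -0.13 at the low end and Sncg at 0.50 near the high end. Sncg, which encodes gamma-synuclein, was at 17642 and 18527 CPM in male L6S1 D and E against 4244 to 8184 CPM elsewhere. For 16 vesicle membrane and transmitter loading genes the median was -0.15 (Slc17a8 -0.72, Slc18a2 -0.52, Syngr3 0.22, Syngr2 0.45), and for 20 endocytosis genes -0.02 (Dnm3 -0.47, Eps15 -0.45, Clta 0.56, Sh3gl3 0.86). For 12 dense-core vesicle genes it was 0.12 (Scg3 -0.38, Pam -0.22, Ptprn 0.49), and for 5 synaptotagmin-like genes -0.23 (Sytl2 -0.29, Esyt3 -0.24, Esyt1 0.07, Sytl3 0.10). These medians stand beside 0.02 for all genes tested.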

How the data were processed

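Per the labels' protocols, EGFP cells were sorted by flow cytometry, and libraries were made from 10 ng RNA with a SMARTer Ultra Low kit and sequenced on a HiSeq 2500. The deposited tables give, for each gene and library, the raw count, the CPM and the RPKM that the authors computed, and both normalised units were recomputed from the counts to within rounding. Per the submitters' processing notes, featureCounts 1.4.5 of Subread and GRCm38.p2 were used for all libraries, with STAR 2.0.4b, Salmon and mm10 named for females only; how strand and multimapping reads were treated is not given in the sources used here. Symbols came from GENCODE M21 for 40254 of 41388 gene IDs, and the 1134 without a symbol held 0.109% of counts.

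The main test was edgeR 4.0.16 (R 4.3.3) on the deposited counts: TMM factors, filterByExpr, a quasi-likelihood fit of the 4 groups over 13 libraries, and Benjamini-Hochberg adjustment over 15406 genes, with calls at an adjusted p under 0.05. SE is the log2 fold change over the root of F. Simulated counts had the same change in all L6S1 libraries, and only L6S1 against L345 averaged over the sexes was tried. There the fit recovered 45% of genes changed by 1 and 92% of those changed by 2 on the log2 scale. The other comparisons, and shifts shared by several libraries, were not simulated. Alternatives were RLE factors, library totals, DESeq2 1.42.0, limma voom (limma 3.58.1), no filter, a stricter filter, only the groups compared, each library left out, male L6S1 D and E left out, a replicate block, and, added after seeing the data, a block within each sex. Deviations from the group means correlated between libraries of the same letter in each sex (0.56, 0.25 and 0.58 for female A, B and C, 0.12 for male A). Between the sexes they correlated at 0.27 to 0.61 except for female L345 A with male L6S1 A, at -0.13, and the replicate block joins letters across the sexes. Block values are given where a call of a named gene changes. Libraries of unlike letters were not correlated for comparison, and deviations within a group cancel out. The correlations therefore do not show that libraries of the same letter form pairs, and the labels do not say what a letter marks. P-values measure the spread between pools of mice. The members and gene lists were chosen with earlier results of these data known. The named genes were called members, the 6 largest differences in each direction averaged over the sexes, the 3 in each direction between the sexes, the highest member of each family, a list of core synaptic genes, and, among partners, called genes and the 2 largest in each direction per list. A few genes that fall under these rules are not reported here. Promoter windows were RefSeq's on GRCm38.p6.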

Additional observations from a re-analysis of the deposited data

Results flagged for a closer look

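Among the 65 release genes, looked at in the 4 male L6S1 libraries, 3 had 1 library far from the other 3. Chance gives such a gap in about 1 of 20 groups. Stxbp4, a syntaxin-4 binding protein, was at 15.1 CPM in male L6S1 A and 8.65 to 9.37 CPM in D, E and F. Stx18, a syntaxin of the endoplasmic reticulum, was at 132 CPM in male L6S1 E and 46.2 to 57.6 CPM in the others, and shares exonic bases with Nsg1 on the opposite strand. Stx2, a plasma membrane syntaxin, was at 167 CPM in male L6S1 F and 79.2 to 90.3 CPM in the others. The causes were not tested.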

How the results depend on the processing

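Over 72 gene results, 1460 of 1596 alternative values kept their direction and side of the threshold. Of the rest, 36 newly passed, 44 no longer passed and 56 changed sign. Nearly all of the 72 were not called in the main fit, so for them keeping the side meant staying uncalled. All 44 losses fell on the results called there, Rab3b (averaged and in males) and Pcsk1 (averaged). Counting the main fit, Rab3b passed in 9 fits averaged (22 alternatives) and 6 in males (23 alternatives). Pcsk1 passed in 11 (22 alternatives). The count of called release genes was 0 in each comparison and moved as follows. Averaged over the sexes it was 1 without the low-count filter, 1 without male L6S1 D and E and 5 with the replicate block. In females it was 1 with DESeq2, without the filter, with the replicate block and with the block within each sex, Sv2b each time. In males it was 3 with DESeq2 (Stx4a, Vamp8 and Syt6, beside 7.53% of all genes) and 4 with the replicate block, and it ran from 0 to 11 over the fits that left out 1 library, with 11 without male L6S1 A. The replicate block gave 1, Vamp2, for the dependence of the level difference on sex and 1, Vamp2, between the sexes. By library totals alone the summed level in male L345 was 12244 CPM, and that in male L6S1 9557 CPM in place of 10073, with its lowest library at 6697 in place of 8409. The block within each sex called no release gene in the other comparisons. The cause was not tested for any of these.

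Changes of sign averaged over the sexes were Dnajc5 0.014, Nsf 0.16, Pam 0.29, Sncg -0.055, Syt17 -0.11, Sytl3 -0.11 and Esyt3 0.023 with the replicate block, Nsf 0.12, Pam 0.49, Sncg -0.049 and Sytl3 -0.0039 with the block within each sex, Esyt3 0.056 without D and E, Unc13d -0.064 with limma voom and Vamp2 -0.011 with library totals. With 1 library left out, Esyt1 ran from -0.10 to 0.19, Unc13d from -0.10 to 0.24 and Vamp2 from -0.16 to 0.22. In males, without D and E, Stx8 was -0.011 and Unc13d 0.61. With the replicate block Stx8 was -0.10, Sv2c 0.19, Unc13d 1.32 and Vamp8 -0.068, and with the block within each sex Stx8 -0.10, Sv2c 0.12, Syt4 0.11, Unc13d 1.41, Vamp5 -0.38 and Vamp8 -0.10. With 1 library left out, male values ran from -0.38 to 0.28 for Unc13d and from -0.22 to 0.38 for Vamp2, and the dependence on sex of Vamp2 from -0.15 to 0.54. Between the sexes Vamp5 was -0.014 and Vamp8 -0.0051 without D and E, Vamp5 -0.0050 and Vamp8 -0.092 with the replicate block, and Vamp2 ran from -0.025 to 0.35 with 1 library left out. With a floor of 0.111 to 0.230 CPM, Cplx3, Cplx4 and Syt8 were at or under the floor in every library.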
